A study of Mus musculus with 106 samples.

Results

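Voltage-gated sodium channels open when a neuron depolarises and carry the inward current of the action potential. The 7 subunit genes followed here were taken from a list of names: the α subunits Scn1a, Scn2a, Scn3a and Scn8a and the β subunits Scn2b, Scn3b and Scn4b. All 7 of 7 were found by symbol among the 55401 mouse genes of the count table, and all 7 passed the filter on low counts in each of the 24 comparisons. Their Ensembl identifiers are ENSMUSG00000064329.13 (Scn1a), ENSMUSG00000075318.13 (Scn2a), ENSMUSG00000057182.15 (Scn3a), ENSMUSG00000023033.14 (Scn8a), ENSMUSG00000070304.12 (Scn2b), ENSMUSG00000049281.16 (Scn3b) and ENSMUSG00000046480.6 (Scn4b). Each channel is built around a large pore-forming α subunit, which is joined by smaller β subunits that set its gating and its place in the membrane. In central neurons the channels are densest at the axon initial segment, where action potentials start.

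The samples came from mice about 9 months of age. HD mice (Huntington's disease model) were heterozygous for the expanded knock-in allele HdhQ200, and controls were littermates without it, on a 129S4 background. Both genotypes carried RiboTag, an HA-tagged ribosomal protein Rpl22 that Cre switches on, and a Cre driver, each heterozygous. Messenger RNA on tagged ribosomes was immunoprecipitated (IP) from homogenate of the cerebrum (without olfactory bulb) or cerebellum of 1 hemisphere, and total RNA of the homogenate (input) was sequenced for a subset. The drivers were Gad2-IRES-Cre (inhibitory neurons), PV-IRES-Cre (parvalbumin neurons), SST (somatostatin neurons, a line not described further in the study's methods) and vGluT2-IRES-Cre (excitatory neurons). Cre marks every cell that expressed the driver gene at any age, and a cerebral IP pools all its regions. Each PV library pooled duplicate precipitations. The age, background and breeding above come from the study's methods, which describe the Gad2, PV and vGluT2 lines and not the SST line.

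There were 106 libraries (67 IP, 39 input) of 45 mice, 24 control and 21 HD. The IP groups held 6 control and 6 HD libraries for Gad2 cerebrum, 6 and 5 for PV, 5 and 4 for SST, 6 and 6 for vGluT2 cerebrum, 6 and 6 for Gad2 cerebellum, and 5 and 6 for vGluT2 cerebellum. The inputs held 3 and 3 libraries for each line and region, except 4 and 3 for SST and 4 and 4 for vGluT2 cerebellum. Library totals ran from 21905238 to 107753596 counts with a median of 35866734. A single HD library in each of the Gad2 cerebellum, PV and vGluT2 cerebrum IPs was re-sequenced with longer reads, so that for those libraries the run and the genotype cannot be told apart.

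The drivers' defining transcripts were examined first, in CPM (counts relative to each library's total, with totals adjusted by TMM scaling over all libraries). Control Gad2 cerebral IPs held 430 CPM of Gad2 against 106 in their input, PV IPs 667 CPM of Pvalb against 105, and SST IPs 1458 CPM of Sst against 142. In vGluT2 cerebral IPs Slc17a6, the driver gene itself, stood at 117 CPM against 35.0 in input. That IP level was close to those in PV (127 CPM) and SST (117 CPM) IPs. Slc17a7, the vesicular transporter of cortical excitatory neurons, stood at 2114 CPM in vGluT2 cerebral IPs against 1821 in their input. The cerebellar vGluT2 IPs held 1317 CPM of the granule cell gene Gabra6, and the cerebellar Gad2 IPs 1448 CPM of the Purkinje cell gene Pcp2.

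Some cerebellar libraries stood apart. Tcf7l2, a gene of thalamic vGluT2 neurons, was at 110 CPM in replicate 5 of the control vGluT2 cerebellar IPs and at 29.2 CPM in replicate 5 of the HD ones, against at most 1.53 CPM in the other 9 libraries. Among the control vGluT2 cerebellar inputs, replicate 3, from the mouse of control IP replicate 5, held 3.54 CPM, and replicate 4, from a mouse without a cerebellar IP, held 67.6 CPM. Labels were used as given, so that fits with the mouse as a block pair control IP replicate 5 with input replicate 3, and whether the labels of these mice are right was not tested.

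Of the α subunit genes, 3 lie side by side on chromosome 2 of GRCm38: Scn3a at chr2:65457118-65567627 on the minus strand, Scn2a at chr2:65620771-65767447 on the plus strand and Scn1a at chr2:66270778-66440840 on the minus strand, together 984 kb. Scn8a lies alone at chr15:100869858-101045938. Scn3b (chr9:40269217-40291618), Scn2b (chr9:45117782-45130070) and Scn4b (chr9:45138395-45154152) are on the plus strand of chromosome 9, with 8324 bp between Scn2b and Scn4b. The longest annotated α transcripts run from 8386 bp for Scn1a to 11436 bp for Scn8a, against 4150 to 4982 bp for the β subunits. Of all 31-base words in the longest transcript, 8.95% for Scn1a, 10.9% for Scn2a and 10.8% for Scn3a also occur in another member, against 0.465% for Scn8a and 0 for the β subunits.

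Scn1a, the α subunit best known from fast-spiking inhibitory neurons, had its highest mean in the PV IPs of control mice. Levels are CPM per kilobase of the longest transcript (RPKM), with the SD over libraries. Scn1a stood at 38.7 ± 8.8 (n = 6) RPKM in PV, 29.1 ± 3.8 (n = 6) in cerebellar Gad2, 25.9 ± 5.1 (n = 5) in SST, 23.9 ± 5.7 (n = 5) in cerebellar vGluT2, 18.9 ± 5.3 (n = 6) in cerebral Gad2 and 16.9 ± 4.8 (n = 6) in cerebral vGluT2 IPs. None of the neighbouring pairs in that order passed the test (exact two-sided permutation test of mean log2(RPKM + 0.1), adjusted p of 0.151 to 0.656 over the 35 neighbouring pairs of the 7 genes).

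Scn8a, the main α subunit of mature axon initial segments and nodes of Ranvier, was also highest in PV IPs, at 36.6 ± 3.1 (n = 6) RPKM. It stood at 28.8 ± 5.4 (n = 6) RPKM in cerebellar Gad2, 27.1 ± 2.0 (n = 5) in SST, 24.8 ± 1.9 (n = 6) in cerebral vGluT2, 22.8 ± 3.6 (n = 5) in cerebellar vGluT2 and 18.7 ± 3.6 (n = 6) in cerebral Gad2 IPs. Among the 5 steps, that from PV to cerebellar Gad2 passed the exact permutation test (adjusted p = 0.0316) and the others did not.

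Scn2a, found along the axons of excitatory neurons and in immature initial segments, had another order. It was highest in cerebellar vGluT2 IPs at 48.2 ± 11 (n = 5) RPKM and lowest in cerebellar Gad2 IPs at 6.99 ± 1.7 (n = 6). The cerebral IPs lay between them, at 26.4 ± 7.7 (n = 6) RPKM in vGluT2, 23.5 ± 4.7 (n = 5) in SST, 16.2 ± 4.2 (n = 6) in Gad2 and 14.8 ± 3.2 (n = 6) in PV. Both outer steps passed the exact permutation test, with adjusted p of 0.0168 between cerebellar and cerebral vGluT2 and 0.0152 between PV and cerebellar Gad2, and none of the 3 inner steps did. The vGluT2 step compares regions of largely the same mice, and the test did not use that pairing.

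Scn3a, the α subunit most abundant around birth, was the lowest of the 4 in every control IP group. It reached 2.79 ± 0.84 (n = 5) RPKM in SST, 2.39 ± 0.61 (n = 6) in cerebral Gad2, 2.22 ± 0.70 (n = 6) in cerebral vGluT2 and 1.71 ± 0.45 (n = 6) in PV IPs. In cerebellum it stood at 0.166 ± 0.13 (n = 6) RPKM in Gad2 and 0.142 ± 0.14 (n = 5) in vGluT2 IPs, where replicate 5 was at 0.379 RPKM and the other 4 were at most 0.138. The step between PV and cerebellar Gad2 passed the exact permutation test (adjusted p = 0.0152), and the other 4 steps did not.

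Scn4b, a β subunit whose intracellular tail can block the open pore and give resurgent current, set the cell types apart in 4 of 5 steps. It stood at 175 ± 21 (n = 6) RPKM in cerebral Gad2, 121 ± 8.6 (n = 6) in PV, 69.8 ± 4.9 (n = 5) in SST, 47.5 ± 6.8 (n = 6) in cerebellar Gad2, 42.3 ± 6.4 (n = 6) in cerebral vGluT2 and 21.0 ± 7.9 (n = 5) in cerebellar vGluT2 IPs. The 4 steps had adjusted p of 0.0152 to 0.0276 in the exact permutation test, and that from cerebellar Gad2 to cerebral vGluT2 did not pass (adjusted p = 0.379). The step from cerebral to cerebellar vGluT2 compares regions of largely the same mice, and the test did not use that pairing.

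Scn2b, a β subunit joined to the α subunit by a disulfide bond, was highest in cerebellar vGluT2 IPs, at 178 ± 31 (n = 5) RPKM against 102 ± 12 (n = 6) in cerebellar Gad2 IPs (exact permutation test, adjusted p = 0.0168). Below that it ran from 93.5 ± 16 (n = 6) RPKM in cerebral Gad2 through 83.0 ± 12 (n = 6) in cerebral vGluT2 and 78.4 ± 13 (n = 5) in SST to 72.0 ± 12 (n = 6) in PV IPs, with no step passing the test.

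Scn3b, a β subunit held without such a bond, was mainly a cerebral transcript. In cerebrum it stood at 48.5 ± 5.0 (n = 6) RPKM in vGluT2, 39.2 ± 1.9 (n = 5) in SST, 37.8 ± 3.9 (n = 6) in Gad2 and 17.1 ± 1.8 (n = 6) in PV IPs. In cerebellum it stood at 1.77 ± 0.27 (n = 6) RPKM in Gad2 and 1.24 ± 1.3 (n = 5) in vGluT2 IPs, where replicate 5 was at 3.51 RPKM and the other 4 were at most 1.21. The steps from vGluT2 to SST (adjusted p = 0.0276), from Gad2 to PV and from PV to cerebellar Gad2 (each 0.0152) passed the exact permutation test.

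**Figure D1:**
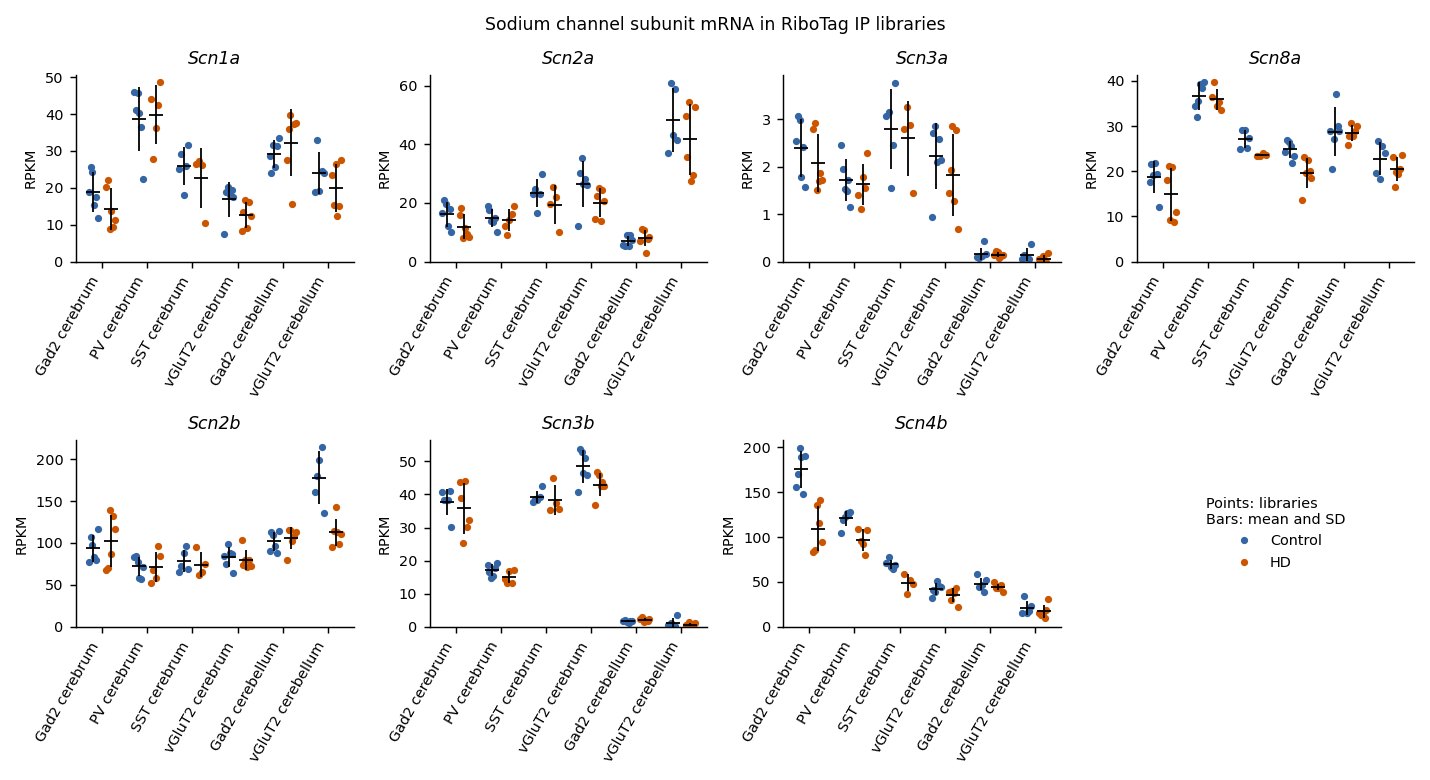
Level of each subunit in RPKM (linear axes from 0, a scale for each gene) in the 12 IP groups, with control libraries in blue and HD libraries in orange. Points are libraries and bars are the mean and SD; Scn3a and Scn3b are close to 0 in the cerebellar IPs, Scn4b is lower in every HD than in every control library of the cerebral Gad2 IPs, and Scn2b of HD and control libraries meets in the cerebellar vGluT2 IPs.

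The make-up of the family differed by cell type. Of the summed RPKM of the 4 α genes, Scn2a made up 50.6 ± 3.3% (SD, n = 5) in cerebellar vGluT2 IPs and 10.7 ± 2.1% (n = 6) in cerebellar Gad2 IPs, where Scn1a made up 44.9 ± 4.0% and Scn8a 44.1 ± 5.4%. In PV IPs the shares were 41.6 ± 6.0% for Scn1a, 40.5 ± 7.6% for Scn8a and 16.0 ± 2.3% for Scn2a (n = 6). Of the 3 β genes, Scn4b made up 57.6 ± 4.7% in PV and 57.1 ± 2.6% in cerebral Gad2 IPs (n = 6 each), while Scn2b made up 88.7 ± 4.6% in cerebellar vGluT2 IPs (n = 5). These shares are a description and were not tested.

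**Figure D2:**
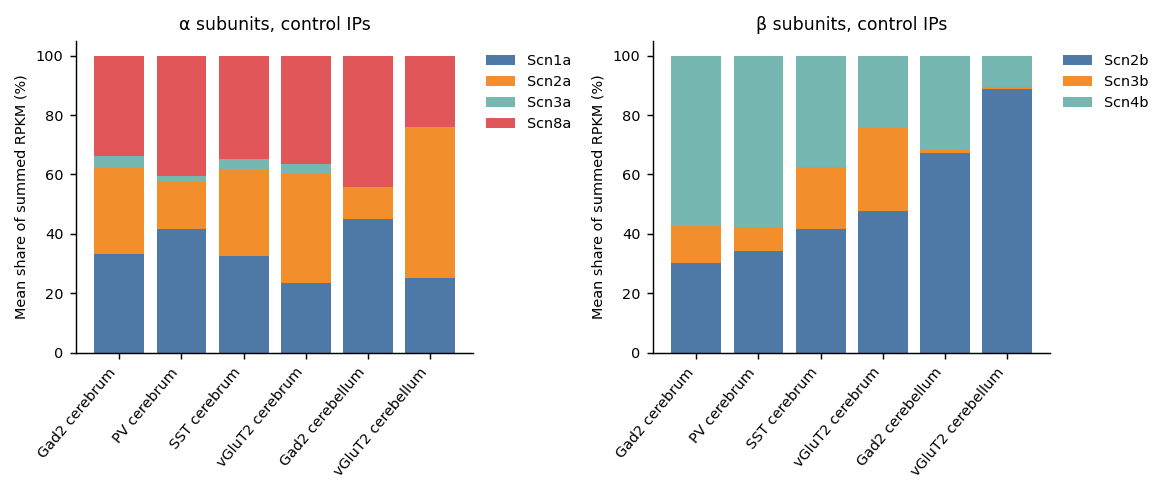
Mean share of each gene in the summed RPKM of the α subunits (left) and of the β subunits (right) in the control IP groups, as stacked bars in percent from 0. Scn2a holds 50.6% of the α sum in cerebellar vGluT2 IPs and 10.7% in cerebellar Gad2 IPs, and Scn2b holds 88.7% of the β sum in cerebellar vGluT2 IPs.

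The contrasts between control IP groups were then tested over 14571 genes with edgeR's quasi-likelihood test and Benjamini-Hochberg adjustment, and a gene was called at an adjusted p of 0.05 or less. Between vGluT2 and Gad2 IPs of cerebrum, 30.5% of all genes and 3 of 7 subunits were called. Scn2a was higher in vGluT2 by 0.71 (log2, SE 0.20, adjusted p = 0.00643), as was Scn8a by 0.42 (SE 0.12, adjusted p = 0.00769), and Scn4b differed by -2.04 (SE 0.14, adjusted p = 1.17e-13). In cerebellum the same contrast called 58% of all genes and 4 subunits. There Scn2a was higher in vGluT2 IPs by 2.75 (SE 0.22, adjusted p = 8.82e-13) and Scn2b by 0.77 (SE 0.13), while Scn4b (log2 difference -1.22) and Scn8a (-0.37, adjusted p = 0.0139) were lower. The Scn8a call was lost without Gad2 replicate 4 (adjusted p = 0.0563) or vGluT2 replicate 3 (0.0571). Scn8a had opposite signs in the regions, and the difference between regions was not tested. Without vGluT2 replicate 5, Scn3b (-1.44, adjusted p = 1.2e-07) and Scn3a (-1.001, adjusted p = 0.0352) were called lower in vGluT2, where with it their differences were -0.55 and -0.21. Without Gad2 replicate 5, the highest of its group in Scn3a, the Scn3a difference was 0.30 and not called, so that its sign depends on the library left out.

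PV IPs set against SST IPs called 15.1% of all genes and 4 subunits. Scn4b (0.78, SE 0.14) and Scn8a (0.42, SE 0.13) were higher in PV, and Scn3b (-1.21, SE 0.29) and Scn2a (-0.68, SE 0.21) were lower. The Scn2a call was lost (adjusted p of 0.0512 to 0.0906) without PV replicates 3, 4 or 6 or SST replicate 6. The Scn8a call was lost (adjusted p of 0.056 to 0.0693) without PV replicate 4 or SST replicates 1 or 4, and with library size as the only scaling (0.0584). Scn1a (0.56, SE 0.21, adjusted p = 0.0635) was called without PV replicate 6 (adjusted p = 0.0188) and by DESeq2 (0.0423). PV IPs set against cerebral Gad2 IPs called 53.8% of all genes and 5 subunits. Scn1a (1.05, SE 0.20, adjusted p = 5.05e-05) and Scn8a (0.98, SE 0.12, adjusted p = 8.25e-08) were higher in PV, and Scn3b (-1.13), Scn4b (-0.52) and Scn2b (-0.36) were lower, the last of these not called without PV replicate 5 (adjusted p = 0.0597).

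Cerebellum differed from cerebrum in both cell classes, and the same mice gave both regions, except for 1 vGluT2 mouse without a cerebellar IP. For Gad2 IPs 55.2% of all genes and 6 subunits were called. Scn3b (-4.43, SE 0.32), Scn3a (-3.90, SE 0.40), Scn4b (-1.90, SE 0.14) and Scn2a (-1.23, SE 0.20) were lower in cerebellum, and Scn1a (0.61, SE 0.20) and Scn8a (0.61, SE 0.12) were higher. For vGluT2 IPs 63.2% of all genes and 5 subunits were called. Scn3b (-5.35, SE 0.36), Scn3a (-4.01, SE 0.43) and Scn4b (-1.08, SE 0.15) were lower in cerebellum, and Scn2b (1.04, SE 0.14) and Scn2a (0.81, SE 0.21) were higher. Scn1a was higher in cerebellar vGluT2 IPs with the mouse as a block (0.50, adjusted p = 0.0446) and missed the threshold without it (0.44, adjusted p = 0.0626), unless cerebellar vGluT2 replicate 1 (0.0475) or 3 (0.0434) was left out. Without replicate 5 of the cerebellar vGluT2 IPs, Scn3b stood at -6.24 and Scn3a at -4.81.

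IP and input were compared next, to ask which subunits are concentrated in the tagged cells. In control cerebrum, Gad2 IPs had 6 of 7 subunits higher than the inputs of all lines, among 65.1% of genes called, with Scn1a at 1.56 (log2, SE 0.31, adjusted p = 4.84e-05) and Scn4b at 1.38 (SE 0.08, adjusted p = 7.38e-16). Among the 13 control cerebral inputs Scn1a ran from 9.002 to 186.2 CPM, and the median log2 deviation from their mean of genes with a transcript over 8000 bp minus that of genes under 2000 bp ran from -1.28 to 1.46. Set against the 3 inputs of the Gad2 line alone, 1 subunit was called, Scn4b, and likewise with the mouse as a block (1.45, adjusted p = 0.0119), where Scn8a stood at -0.01. Scn2b (0.26, adjusted p = 0.0708) was called without Gad2 IP replicate 1 (adjusted p = 0.0368), PV input replicate 1 (0.0369), or SST input replicate 2 (0.0405) or 3 (0.0378). PV IPs called 68.9% of genes and 5 subunits: Scn1a (2.51, SE 0.31), Scn8a (1.28, SE 0.12), Scn2a (0.83, SE 0.27) and Scn4b (0.77, SE 0.08) were enriched, and Scn3b was depleted (-0.62, SE 0.09).

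SST IPs called 65.3% of genes and 5 subunits, each of them enriched, led by Scn1a (1.92, SE 0.32) and Scn2a (1.48, SE 0.28), while Scn4b was not called (-0.04, SE 0.09, adjusted p = 0.714). Cerebral vGluT2 IPs called 65.8% of genes and 6 subunits, with Scn2a (1.72, SE 0.27), Scn1a (1.37, SE 0.31) and Scn3b (0.94, SE 0.09) enriched and Scn4b depleted (-0.69, SE 0.09, adjusted p = 2.14e-08). In cerebellum, Gad2 IPs called 59.4% of genes and 4 subunits: Scn4b (1.18, SE 0.16), Scn1a (0.64, SE 0.21) and Scn8a (0.43, SE 0.13) were enriched and Scn2a was depleted (-1.78, SE 0.21, adjusted p = 3.74e-07). The Scn8a call was lost with the mouse as a block (adjusted p = 0.0876), against the inputs of the Gad2 line alone (0.0572), with library size as the only scaling (0.0771) and without vGluT2 input replicate 2 (0.0508). Cerebellar vGluT2 IPs called 57.4% of genes and 2 subunits, Scn2a (0.95, SE 0.21) and Scn2b (0.63, SE 0.14), with Scn2b not called with the mouse as a block (adjusted p = 0.0862). Without vGluT2 IP replicate 5, Scn3a (-1.55, adjusted p = 0.0385) and Scn3b (-1.10, adjusted p = 0.0251) were called lower in the IPs, where with it they stood at -0.70 and -0.15. Without vGluT2 input replicate 4, the input with high Tcf7l2, they stood at -0.05 and 0.29 and were not called. Without IP replicate 2 Scn4b was called lower (-0.36, adjusted p = 0.0435). The part of transcript length in these α subunit enrichments was not tested.

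The HD effect was tested in each IP and in the inputs of each region. Scn4b was the subunit called in cerebrum, in the inputs. In CPM scaled within that test, the control inputs of the Gad2 line read 307, 357 and 345 and the HD inputs 209, 207 and 224. Those of the PV line read 348, 346 and 382 CPM in control and 191, 194 and 154 in HD. The SST line gave 258, 346, 361 and 345 CPM in control against 208, 216 and 227 in HD, and the vGluT2 line 395, 323 and 406 against 174, 212 and 230. No HD input of any line overlapped a control input. The share of all genes without such overlap was not counted.

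With the line as covariate, Scn4b fell by 0.77 on the log2 scale (SE 0.07, adjusted p = 2.44e-06, edgeR, 13 control and 12 HD libraries), the 1 subunit of 7 called where 0.652% of all 14880 genes were. The call held without each library in turn. Within single lines the log2 difference was -0.66 for Gad2, -0.98 for PV, -0.60 for SST and -0.87 for vGluT2, with adjusted p of 0.496 to 1 at 3 or 4 libraries a genotype. With the same-numbered libraries of the Gad2 line as pairs, a block chosen after seeing the data, that line alone called Scn4b (-0.66, adjusted p = 0.0133). The labels do not name these pairs, so that this call rests on a pairing read from the data. The median over the 7 subunits was 0.05, and over all genes 0.03.

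Among the IPs, the Scn4b difference was negative in all 6, and none passed the threshold. In cerebral Gad2 IPs control libraries read 764, 899 and 1011 CPM as lowest, median and highest, and HD libraries 416, 533 and 689. The share of all genes whose groups did not overlap was not counted in any IP. The log2 difference was -0.71 (SE 0.14, adjusted p = 0.123), in an edgeR test that called 0.0279% of all genes and none of the 7 subunits, with 1 of 7 at an unadjusted p under 0.05. DESeq2 called 1 subunit there, Scn4b (-0.70, adjusted p = 0.0017), among 75 genes in all. An edgeR fit of all IP libraries together also called Scn4b (adjusted p = 0.047), among 25 genes in all.

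In SST IPs the control libraries read 380, 417, 371, 362 and 377 CPM of Scn4b and the HD libraries 328, 198, 291 and 244. The log2 difference was -0.52 (SE 0.16, adjusted p = 1). Of the control SST mice, 2 had identifiers with the prefix BR and 3 with the prefix Z, while all HD ones had BR; among BR mice alone the log2 difference was -0.59 and not called. There edgeR called 0% of all genes, with 216 at an unadjusted p under 0.05, and DESeq2 called 2 genes. In PV IPs the libraries overlapped, at 537 to 656 CPM in control and 416 to 572 in HD (log2 -0.32, SE 0.09, adjusted p = 0.691), where edgeR called 0.0408% of genes (6) and DESeq2 42. Cerebral vGluT2 IPs differed by -0.22 (SE 0.15, adjusted p = 0.678), where edgeR called 0% of genes, 1092 were at an unadjusted p under 0.05 and DESeq2 called 25. Without the re-sequenced HD library of that group, its lowest at 118 CPM, the difference was -0.14. In the SST, PV and cerebral vGluT2 IPs edgeR and DESeq2 each called 0 of 7 subunits, with 1 of 7 at an unadjusted p under 0.05 in edgeR. That subunit was Scn4b in SST and PV IPs and Scn8a in cerebral vGluT2 IPs.

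Of the 10 genes listed for striatal projection neurons, 5 were called in the cerebral inputs, where 0.652% of all genes were, all 5 lower in HD: Adora2a (log2 -0.76, SE 0.14), Penk (-0.80, SE 0.15), Rgs9 (-0.52, SE 0.11), Drd2 (-0.52, SE 0.11) and Adcy5 (-0.37, SE 0.08). In cerebral Gad2 IPs their summed level averaged 7205 CPM in control and 4887 CPM in HD libraries, with Ppp1r1b the most abundant (2306 CPM in control, 1567 in HD). All 10 had a negative difference there. Of them 0 were called in edgeR, which called 0.0279% of all genes, with 9 at an unadjusted p under 0.05. DESeq2 called 4 of the 10, among 75 genes in all. Their median log2 difference was -0.54 in Gad2, -0.47 in PV, -0.39 in SST and -0.26 in vGluT2 cerebral IPs. In PV, SST and vGluT2 cerebral IPs edgeR called 0 of the 10, with 8, 3 and 4 at an unadjusted p under 0.05. In these IPs DESeq2 called 3, 0 and 1 of the 10, among 42, 2 and 25 genes in all. Fewer cells of a type and less RNA per cell cannot be told apart in bulk libraries, and the part of these cells in the Scn4b result was not tested.

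Scn2b was the subunit called in an IP. In cerebellar vGluT2 IPs the control libraries read 724, 750, 868, 924 and 595 CPM, and the 6 HD libraries had a lowest value of 418, a median of 489 and a highest of 593 CPM. Control replicate 5 and HD replicate 3 nearly met, and with 1 scaling over all libraries they crossed, at 629 and 664 CPM. Scn2b fell by 0.63 on the log2 scale (SE 0.12, adjusted p = 0.017, edgeR), the 1 subunit of 7 called where 2.09% of all 13487 genes were. It was not called with the replicate number as a block (adjusted p = 0.053) or without control replicate 3 (-0.59, adjusted p = 0.0528), and was called without replicate 5 of both groups (-0.71, adjusted p = 0.0218), a setting chosen after seeing the data. The median over the 7 subunits was -0.24, and over all genes -0.01.

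Of the 5 listed granule cell genes, 2 were called in those libraries, where 2.09% of all genes were, and all 5 had a negative difference. The 2 were Cbln3 (log2 -0.80, SE 0.09, adjusted p = 0.000532) and Neurod1 (-0.86, SE 0.16, adjusted p = 0.0131). Their summed level averaged 9854 CPM in control and 6190 CPM in HD libraries, with Cbln3 the most abundant (4909 and 2768 CPM). The part of granule cell content in the Scn2b result was not tested. In cerebellar Gad2 IPs Scn2b stood at 463 ± 48 CPM in control and 466.3 ± 52 in HD (SD, n = 6 each; log2 0.01, SE 0.11). The HD effect on Scn2b in vGluT2 minus that in Gad2 IPs of cerebellum was -0.69 (SE 0.16, adjusted p = 0.102), where 0.107% of genes were called, and it passed the threshold without control vGluT2 replicate 5 (adjusted p = 0.0328). The effect in cerebellar minus that in cerebral vGluT2 IPs was -0.61 (SE 0.17, adjusted p = 0.18), where 0.316% of genes were called.

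**Figure D3:**
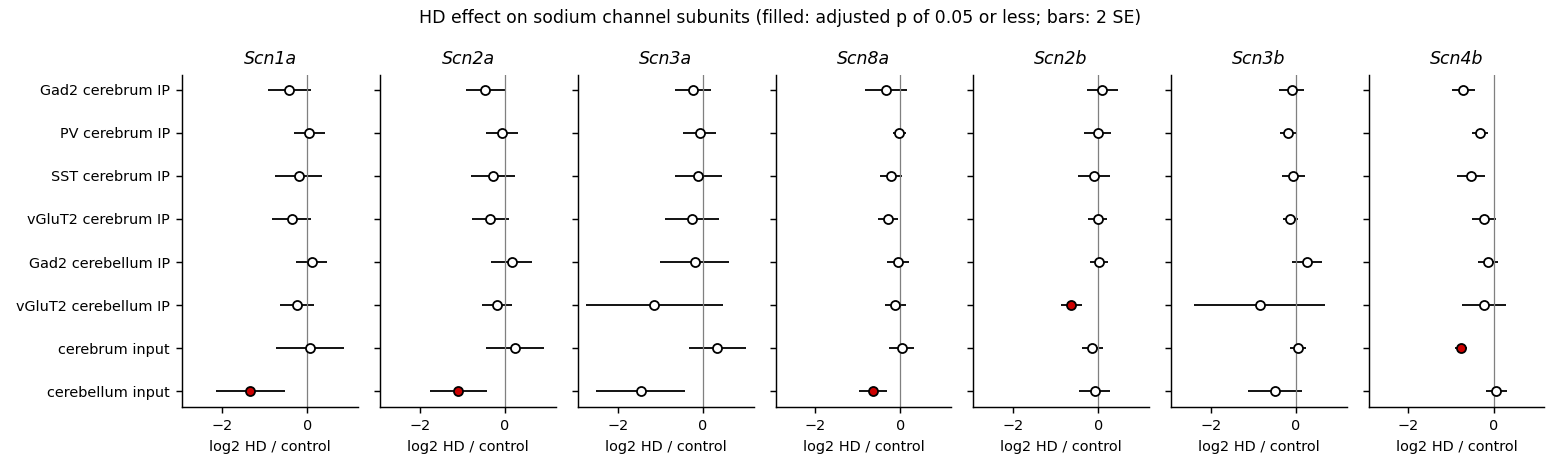
Log2 ratio of HD to control for each subunit in the 6 IPs and the inputs of both regions, with bars of 2 standard errors to each side. Filled red points have an adjusted p of 0.05 or less: Scn2b in cerebellar vGluT2 IPs (-0.63), Scn4b in cerebral inputs (-0.77), and Scn1a (-1.34), Scn2a (-1.10) and Scn8a (-0.64) in cerebellar inputs.

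In the cerebellar inputs 3 of the 4 α subunits were called lower in HD with the lines pooled. Values are given by line, and the difference between the lines was not tested. Scn1a read 222, 170, 149 and 226 CPM in the control and 69.1, 39.9, 23.8 and 48.0 in the HD inputs of the vGluT2 line. In the Gad2 line it read 82.6, 215 and 80.4 CPM in control and 78.9, 44.8 and 177 in HD. The vGluT2 line groups did not overlap, and those of the Gad2 line did.

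Scn2a read 287, 236, 237 and 243 CPM in control and 109, 69.1, 51.8 and 68.5 in HD inputs of the vGluT2 line, and 133, 309 and 122 against 138, 85.4 and 264 in the Gad2 line. Scn8a read 276, 246, 302 and 246 CPM against 175, 121, 139 and 121 in the vGluT2 line, and 237, 303 and 178 against 182, 177 and 249 in the Gad2 line. Both genes split the vGluT2 line by genotype and overlapped in the Gad2 line, as Scn1a did. In the vGluT2 line alone edgeR called 7565 genes, and the share of all genes split in this way was not counted.

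With the line as covariate Scn1a fell by 1.34 (SE 0.40, adjusted p = 0.0345, edgeR), Scn2a by 1.10 (SE 0.34, adjusted p = 0.0353) and Scn8a by 0.64 (SE 0.16, adjusted p = 0.0274), 3 of 7 subunits where 25.6% of all 14478 genes were called. Scn3a missed the threshold (-1.46, SE 0.52, adjusted p = 0.0523), and the β subunits Scn2b (-0.08), Scn3b (-0.49) and Scn4b (0.07) were not called. The median over the 7 subunits was -0.64, and over all genes -0.00. The calls rested on most libraries: leaving out 1 library ended that of Scn1a in 10 of 14 cases (adjusted p of 0.0548 to 0.0767), that of Scn2a in the same number (0.0573 to 0.0804) and that of Scn8a in 9 (0.0516 to 0.0648). The libraries whose loss ended the calls of Scn1a and Scn2a were replicate 2 of both Gad2 line groups and all 8 of the vGluT2 line, and for Scn8a the same without HD vGluT2 replicate 1. With the replicate number within a line as a block no subunit was called by edgeR (adjusted p = 0.118 for each of the 3). Scn3a was called by DESeq2 (adjusted p = 0.0146), and by edgeR without control Gad2 replicate 1 (0.041) or 3 (0.0246) or HD Gad2 replicate 3 (0.01). Control vGluT2 replicate 4, the input with high Tcf7l2, read 7.08 CPM of Scn3a and 14.9 CPM of Scn3b, against at most 2.07 and 4.89 CPM in the other control inputs. Without it the differences were -0.90 for Scn3a and -0.09 for Scn3b, and neither was called.

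Transcript length moved with this result. A measure for each library was taken as the median log2 deviation from the control inputs of genes with a transcript over 8000 bp minus that of genes under 2000 bp, without the 7 subunits; it was chosen after seeing the data. It lay between -1.52 and -0.98 in the 4 HD inputs of the vGluT2 line and between -0.07 and 0.34 in the 4 control inputs. In the Gad2 line it lay between -1.25 and 0.37 in HD and between -0.76 and 0.49 in control inputs. Of 879 genes over 8000 bp, 347 were called lower and 14 higher in HD, and of 2865 genes under 2000 bp, 90 were called lower and 544 higher. With that measure as a covariate no α subunit passed the threshold in edgeR (Scn1a -0.20, Scn2a -0.14, Scn8a -0.28), nor did any in the Gad2 line alone (Scn1a -0.34, Scn2a -0.22, Scn8a -0.24). In the vGluT2 line alone, where edgeR called 7565 genes, all 4 were called (Scn1a -2.09, Scn2a -1.76, Scn3a -2.14, Scn8a -0.95). Within the vGluT2 line the measure and the genotype cannot be told apart. In vGluT2 IPs of the same region Scn1a differed by -0.24 (SE 0.20), Scn2a by -0.19 (SE 0.18) and Scn8a by -0.12 (SE 0.12), with 0 of these called by edgeR or DESeq2 and 0 at an unadjusted p under 0.05.

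In the cerebral IPs edgeR and DESeq2 each called 0 α subunits, with 1 at an unadjusted p under 0.05, Scn8a in vGluT2 IPs. Their log2 differences ran from -0.46 for Scn2a in Gad2 to 0.04 for Scn1a in PV IPs. Scn8a differed by -0.35 (SE 0.24) in Gad2 and by -0.30 (SE 0.11, adjusted p = 0.65) in vGluT2 IPs, where genes over 8000 bp had median differences of -0.20 and -0.17. In PV IPs Scn8a differed by -0.02 (SE 0.08), with control libraries from 381 to 469 CPM and HD libraries from 389 to 468. In cerebral inputs Scn1a, Scn2a and Scn8a differed by 0.07 (SE 0.40), 0.23 (SE 0.34) and 0.03 (SE 0.14). In cerebellar Gad2 IPs, where 0.0142% of genes were called, the 7 differences ran from -0.19 to 0.25, with 0 of 7 called by edgeR or DESeq2 and 0 at an unadjusted p under 0.05. In cerebellar vGluT2 IPs Scn3a (-1.14, SE 0.81) and Scn3b (-0.85, SE 0.77) were not called, and without control replicate 5 their differences were -0.34 and 0.04. Without replicate 5 of both genotypes, a setting chosen after seeing the data, they were -0.97 and -0.16.

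The difference of the HD effect between cell classes or regions was called for 0 of 7 subunits in each of the 4 tests in edgeR, with 1 of 7 at an unadjusted p under 0.05 in each. DESeq2 called 1 in the cerebellar test of vGluT2 minus Gad2 IPs, Scn2b (-0.68, adjusted p = 0.0144), among 73 genes in all. It called 0 subunits in the other 3 tests, with 126 genes in all between cerebellar and cerebral vGluT2 IPs. Between vGluT2 and Gad2 IPs of cerebrum the 7 differences ran from -0.13 to 0.47, where edgeR called 0% of genes, 218 were at an unadjusted p under 0.05 and DESeq2 called 0. Between cerebellar and cerebral Gad2 IPs they ran from -0.09 to 0.61, where edgeR called 0% of genes, 772 were at an unadjusted p under 0.05 and DESeq2 called 21; Scn4b stood at 0.59 (SE 0.18, adjusted p = 0.801).

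Genes that work beside these channels were followed as a further list. All 12 listed partners at the axon initial segment were tested in every HD comparison. In the cerebellar inputs 5 were called, where 25.6% of all genes were, all 5 lower in HD: Kcnq3 (log2 -1.44, SE 0.41), Fgf12 (-0.87, SE 0.28), Ank3 (-0.75, SE 0.22), Nrcam (-0.66, SE 0.18) and Fgf11 (-0.45, SE 0.10). In the other 7 comparisons edgeR called 0, with at most 3 at an unadjusted p under 0.05. DESeq2 called 1, Fgf12 in cerebellar vGluT2 IPs, where it called 665 genes in all. Ank3 encodes ankyrin-G, the scaffold that anchors sodium channels at the initial segment, and Kcnq3 a potassium channel subunit held there by the same scaffold. These calls lie in the inputs in which long transcripts were low.

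The genes most like each subunit over the 34 control IP libraries were named by Pearson's r of log2(CPM + 1) among 13211 genes, as a description; the libraries share cell type, region and depth. Scn1a was closest to Sacm1l (r = 0.957), Abca5 (0.946) and Ttbk2 (0.913), and Scn2a to Trhde (0.958), Pik3r1 (0.953) and Cntn1 (0.933). Scn3a was closest to Grm5 (0.984), Col25a1 (0.979) and Stxbp6 (0.977), and Scn3b to Pnma2 (0.993), Camkv (0.986) and Col25a1 (0.985). Scn8a had the lowest values, with Pitrm1 (0.873), Exoc4 (0.848) and Iars (0.835). Scn2b was closest to Phf2 (0.927), Pcdhgb6 (0.918) and Ablim3 (0.914), and Scn4b to Pcp4l1 (0.978), Wnt5a (0.942) and Wnk4 (0.934). Among the subunits themselves Scn3a and Scn3b had r = 0.959, Scn1a and Scn8a 0.628, and Scn2b and Scn3b -0.712.

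The β subunits with HD calls, Scn2b and Scn4b, are neighbours on chromosome 9. Their promoter sequences from RefSeq (GRCm38.p6, from 250 bases before to 50 bases after the start, plus strand) are shown because the genes lie 8324 bp apart and differ in the cell types where they are high. An entry was found for 5 of the 7 subunits. The Scn2b promoter (chr9:45117626-45117925) holds 38.3% G and C and 2 CpG pairs, and the Scn4b promoter (chr9:45138374-45138673) 66.3% and 26 CpG pairs, against medians of 52.7% and 7 over 32851 promoters. The motifs searched on both strands were GGGCGG, found in 35.7% of all promoters, CCAAT, in 37.4%, and TATAAA, in 13.6%. Capitals mark a match, and there was 1, to CCAAT on the minus strand in Scn4b.
Scn2b: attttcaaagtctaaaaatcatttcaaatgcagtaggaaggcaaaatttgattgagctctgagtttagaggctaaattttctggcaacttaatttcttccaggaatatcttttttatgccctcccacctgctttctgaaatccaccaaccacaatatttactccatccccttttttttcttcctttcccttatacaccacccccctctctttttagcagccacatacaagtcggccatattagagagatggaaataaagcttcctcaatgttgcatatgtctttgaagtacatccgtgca
Scn4b: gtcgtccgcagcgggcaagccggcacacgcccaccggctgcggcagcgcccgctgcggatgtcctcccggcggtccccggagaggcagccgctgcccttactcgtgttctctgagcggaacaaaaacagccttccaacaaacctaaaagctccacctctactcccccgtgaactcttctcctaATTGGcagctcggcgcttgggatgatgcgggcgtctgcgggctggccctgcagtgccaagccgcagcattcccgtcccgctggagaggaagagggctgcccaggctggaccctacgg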

How the data were processed

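The authors aligned reads of stranded poly(A) libraries with STAR to GRCm38.p6, with spike-in and tag sequences added, and deposited Salmon's expected counts (estimated counts per gene, not scaled); these were rounded. Lengths and positions came from GENCODE M21, of the same build. Tests covered protein-coding genes averaging over 10 counts per library of the fit and used edgeR 4.0.16 (quasi-likelihood test, TMM scaling, R 4.3.3, limma 3.58.1), and p was adjusted by Benjamini and Hochberg over all genes tested. SE is the log2 difference over the root of F. Inputs of a region were fitted with the line as covariate. Levels used 1 TMM scaling over all libraries, with a pseudocount of 0.1 on the log scale; HD values used the scaling of each fit. Likeness used genes with a mean of at least 1 CPM. Alternatives were DESeq2 1.42.0, its size factors, library size alone, no filter, blocks of mouse or replicate number, subsets of lines or groups, merged exon length, a pseudocount of 1 and leaving out each library. The long-transcript measure and the set without replicate 5 were added after seeing the data. Replicate numbers of control and HD groups do not name the same mouse. In the Gad2 cerebral inputs, and in no other group, every same-numbered pair of control and HD libraries deviated together (r of 0.343 to 0.886 in 3 pairs). Their long-transcript measure was 1.46, 0.09 and -0.40 in control and 1.53, 0.01 and -0.43 in HD replicates 1, 2 and 3. The labels do not name these pairs, and the correlation does not establish a pairing. Their block was added after seeing the data. Python 3.11.15, pandas 2.3.3, numpy 2.4.6, scipy 1.17.1 and matplotlib 3.10.9 were used. Members and lists were chosen with earlier results of these data known. A list of other channel genes is not reported here. Calls across genes cover counting error and the spread of the libraries, and 21905238 counts was the lowest depth.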

Additional observations from a re-analysis of the deposited data

Results flagged for a closer look

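Among groups of 4 to 10 libraries, 105 were examined for a single library far from the rest, and 15 held one; chance flags about 1 in 20 groups. Each value is in CPM on the common scaling, with the nearest other library of its group in brackets.

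For Scn1a, HD SST IP replicate 4 was lowest at 87.94 CPM (219.2) and control cerebral vGluT2 IP replicate 1 was lowest at 62.21 CPM (145.9). Control SST input replicate 4 was highest for Scn1a at 79.11 CPM (40.16) and for Scn2a at 99.72 CPM (55.88). For Scn2a, control vGluT2 cerebellar input replicate 1 was highest at 282.1 CPM (237.1). For Scn8a, HD SST IP replicate 3 was highest at 274.9 CPM (268.7).

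For Scn3a, control cerebellar Gad2 IP replicate 5 was highest at 4.085 CPM (1.452), control cerebellar vGluT2 IP replicate 5 at 3.623 CPM (1.321), control vGluT2 cerebellar input replicate 4 at 6.91 CPM (1.79) and HD vGluT2 cerebellar input replicate 2 at 1.016 CPM (0.577). For Scn3b, the same control vGluT2 libraries were highest, IP replicate 5 at 14.57 CPM (5.008) and input replicate 4 at 14.54 CPM (4.804). Control cerebral Gad2 IP replicate 6 was lowest for Scn3b at 125 CPM (158.4). For Scn2b, HD cerebral vGluT2 IP replicate 1 was highest at 480.6 CPM (371.6), and for Scn4b, control PV IP replicate 1 was lowest at 519.2 CPM (594.9).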

How the results depend on the processing

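The HD effect on Scn4b in cerebral inputs kept its direction under each alternative, and its call under those that pooled the lines. The number of subunits called for HD moved in 4 places. In cerebral Gad2 IPs it went from 0 to 1 in DESeq2, with the long-transcript measure as a covariate and in a fit of all IP libraries. In cerebellar vGluT2 IPs it went from 1 to 0 with the replicate number as a block. In cerebral inputs it went from 1 to 0 in each of the 4 lines alone, with fewer libraries and no block. In cerebellar inputs it went from 3 to 0 with the replicate number within a line as a block, in the Gad2 line alone and with the long-transcript measure as a covariate, and to 4 in DESeq2 and in the vGluT2 line alone. In IP minus input of cerebral Gad2 it went from 6 to 1 against inputs of the same line and with the mouse as a block. In IP minus input of cerebellar vGluT2 it went from 2 to 1 with the mouse as a block. In the cerebellar difference of HD effects between vGluT2 and Gad2 IPs it went from 0 to 1 in DESeq2. Leaving out 1 library gave 0 to 1 calls in cerebellar vGluT2 IPs, 0 to 4 in cerebellar inputs, 2 to 4 for PV against SST IPs, 4 to 5 for PV against Gad2 IPs, 3 to 6 for cerebellar vGluT2 against Gad2 IPs and 5 to 6 for cerebellar against cerebral vGluT2 IPs. In IP minus input it gave 6 to 7 calls for cerebral Gad2, 3 to 4 for cerebellar Gad2 and 2 to 4 for cerebellar vGluT2, and it gave 0 to 1 for that difference of HD effects. The cause was not tested. With the pairs of the Gad2 cerebral inputs as a block, chosen after seeing the data, the pooled cerebral inputs called 1 subunit and the Gad2 line alone 1, Scn4b in both, and no call of another subunit changed. In each of the other groups some pair had r of 0.1 or less and some library correlated best with another number. In cerebral Gad2 IPs the same-numbered libraries came from mice with adjacent identifiers. There the median r was 0.384, with 4 of 6 pairs over 0.1, and whether those libraries were prepared in pairs is not known. With no other group in the fit, calls were gained by Scn3b between cerebral vGluT2 and Gad2 IPs (log2 0.35), by Scn1a (0.60) and Scn3a (-0.68) between PV and SST IPs, and by Scn3a between PV and Gad2 IPs (-0.51). With no filter on low counts, calls were lost by Scn8a in IP minus input of cerebral Gad2 (0.28) and by Scn3a in that of cerebral vGluT2 (0.65). Against inputs of its own line, Scn3b was called in cerebellar Gad2 IPs (0.85).

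Over all genes, the calls in cerebellar inputs were 3703 as reported, 9 with the block, 84 with the long-transcript measure, 0 in the Gad2 line alone and 7565 in the vGluT2 line alone. In cerebellar vGluT2 IPs they were 282 as reported, 109 with the block, 152 without replicate 5 of both genotypes, 744 with the long-transcript measure, 521 in a fit of all IP libraries and 665 in DESeq2. In cerebral inputs they were 97 as reported, 32 without the SST line, 543 with the long-transcript measure, 0 in each of the 4 lines alone, 14 in the Gad2 line alone with its pairs as a block and 213 in DESeq2. In cerebral Gad2 IPs they were 4 in edgeR, 9 with the block, 9 with the long-transcript measure, 25 in a fit of all IP libraries and 75 in DESeq2. In PV IPs they were 6 in edgeR, 0 with the block or in a fit of all IP libraries and 42 in DESeq2, and in cerebellar Gad2 IPs 2, 0 with the block, 11 in a fit of all IP libraries and 22 in DESeq2.

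The sign of a log2 difference changed as follows, with the reported value first; a value is an HD effect unless another comparison is named. Of the values that changed sign, Scn8a in IP minus input of cerebral Gad2 was a call as reported, and the cause was not tested for any. With the long-transcript measure as a covariate, chosen after seeing the data, it changed in cerebral Gad2 IPs for Scn3a (-0.22 to 0.054), Scn2b (0.10 to -0.067) and Scn3b (-0.10 to 0.015). In PV IPs it changed for Scn2b (-0.0074 to 0.0026). In cerebral vGluT2 IPs it changed for Scn1a (-0.37 to 0.069), Scn2a (-0.35 to 0.091) and Scn3a (-0.25 to 0.24). In cerebral inputs it changed for Scn1a (0.066 to -0.10) and Scn8a (0.029 to -0.018). In cerebellar inputs it changed for Scn2b (-0.084 to 0.17). With the replicate number as a block, it changed in PV IPs for Scn1a (0.044 to -0.17) and Scn8a (-0.024 to 0.068). In cerebellar Gad2 IPs it changed for Scn3a (-0.19 to 0.0038). Without the re-sequenced library, it changed in PV IPs for Scn1a (0.044 to -0.027) and Scn8a (-0.024 to 0.0074). In cerebellar Gad2 IPs it changed for Scn2b (0.010 to -0.0062). Among mice of the BR prefix alone, it changed in SST IPs for Scn2b (-0.10 to 0.12) and Scn3b (-0.058 to 0.012). In the SST line alone, it changed in cerebral inputs for Scn1a (0.066 to -0.55), Scn2a (0.23 to -0.22), Scn3a (0.35 to -0.065) and Scn3b (0.051 to -0.0027). In the Gad2 line alone, it changed in cerebral inputs for Scn8a (0.029 to -0.11) and Scn3b (0.051 to -0.020). In that line with its pairs as a block, it changed in cerebral inputs for Scn1a (0.066 to -0.11), Scn8a (0.029 to -0.11) and Scn3b (0.051 to -0.024). In the PV line alone, it changed in cerebral inputs for Scn8a (0.029 to -0.38), Scn2b (-0.14 to 0.061) and Scn3b (0.051 to -0.0089). In the vGluT2 line alone, it changed in cerebellar inputs for Scn2b (-0.084 to 0.043). Without the SST line, it changed in cerebral inputs for Scn8a (0.029 to -0.029). With the mouse as a block, over mice with both IP and input, it changed in IP minus input of cerebral Gad2 for Scn8a (0.39 to -0.014). Scn4b (-0.040 to 0.22) changed for IP minus input of SST. Scn3a (-0.45 to 0.74) changed for IP minus input of cerebellar Gad2. Scn3b (-0.15 to 0.17) and Scn4b (-0.066 to 0.13) changed for IP minus input of cerebellar vGluT2. With the mouse as a block over both regions, it changed in the difference of HD effects between regions in vGluT2 IPs for Scn4b (0.015 to -0.018). With library size as the only scaling, it changed in IP minus input of SST for Scn2b (-0.086 to 0.075) and Scn4b (-0.040 to 0.12). Scn2b (0.062 to -0.029) changed for IP minus input of cerebral vGluT2. Scn8a (0.035 to -0.10) changed for IP minus input of cerebellar vGluT2. Against inputs of the same line alone, it changed in IP minus input of SST for Scn4b (-0.040 to 0.11). Scn3a (-0.45 to 0.36) changed for IP minus input of cerebellar Gad2. Scn8a (0.035 to -0.068) changed for IP minus input of cerebellar vGluT2. In DESeq2, it changed in IP minus input of cerebral vGluT2 for Scn2b (0.062 to -0.0017). Scn8a (0.035 to -0.0069) changed for IP minus input of cerebellar vGluT2. With DESeq2's size factors, it changed in IP minus input of cerebral vGluT2 for Scn2b (0.062 to -0.0017). Scn8a (0.035 to -0.0069) changed for IP minus input of cerebellar vGluT2. With no filter on low counts, it changed in IP minus input of cerebral vGluT2 for Scn2b (0.062 to -0.034). Scn8a (0.035 to -0.0077) changed for IP minus input of cerebellar vGluT2. In the difference of HD effects between regions in vGluT2 IPs it changed for Scn4b (0.015 to -0.0069).

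Leaving out 1 library at a time gave both signs for some values, as lowest and highest. PV IPs gave Scn1a from -0.074 to 0.15, Scn2a from -0.19 to 0.061, Scn3a from -0.22 to 0.050, Scn8a from -0.059 to 0.0074 and Scn2b from -0.14 to 0.088. SST IPs gave Scn1a from -0.31 to 0.041, Scn3a from -0.26 to 0.10 and Scn3b from -0.14 to 0.00020. Cerebral vGluT2 IPs gave Scn2b from -0.092 to 0.032. Cerebellar Gad2 IPs gave Scn3a from -0.33 to 0.34, Scn8a from -0.14 to 0.036 and Scn2b from -0.027 to 0.10. Cerebellar vGluT2 IPs gave Scn3b from -1.21 to 0.043. Cerebral inputs gave Scn1a from -0.21 to 0.33 and Scn8a from -0.030 to 0.10. Cerebellar inputs gave Scn2b from -0.17 to 0.019. The control contrast of cerebellar vGluT2 and Gad2 IPs gave Scn3a from -1.001 to 0.30. IP minus input of SST gave Scn4b from -0.075 to 0.018. IP minus input of cerebellar Gad2 gave Scn3a from -0.99 to 0.20. IP minus input of cerebellar vGluT2 gave Scn8a from -0.082 to 0.10, Scn3b from -1.10 to 0.29 and Scn4b from -0.36 to 0.024. The cerebral difference of HD effects between vGluT2 and Gad2 IPs gave Scn1a from -0.11 to 0.22, Scn2a from -0.046 to 0.27, Scn3a from -0.21 to 0.12, Scn8a from -0.074 to 0.17 and Scn3b from -0.13 to 0.034. The cerebellar difference of HD effects between vGluT2 and Gad2 IPs gave Scn8a from -0.19 to 0.00014 and Scn4b from -0.33 to 0.083. The difference of HD effects between regions in Gad2 IPs gave Scn3a from -0.077 to 0.59 and Scn2b from -0.18 to 0.025. The difference of HD effects between regions in vGluT2 IPs gave Scn3b from -1.08 to 0.20 and Scn4b from -0.22 to 0.23.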

Other observations

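In the inputs, which hold all cells of a region, the β subunit Scn2b stood at 69.3 ± 2.4 RPKM in cerebrum and 113 ± 29 in cerebellum of the control Gad2 line (SD, n = 3 each). Scn4b stood at 67.7 ± 9.4 RPKM in cerebrum and 20.5 ± 2.2 in cerebellum, and Scn3b at 29.5 ± 2.9 and 1 ± 0.17. In the same inputs the α subunit Scn8a stood at 17.9 ± 4.4 RPKM in cerebrum and 20.6 ± 5.3 in cerebellum. These levels were not tested between regions.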
